A study of Mus musculus with 6 samples.

Results

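Small proline-rich proteins (Sprr) are short, proline-rich precursors of the cornified envelope, the crosslinked protein shell that replaces the plasma membrane of the outermost keratinocytes. Transglutaminases join them to loricrin, involucrin and other precursors through their glutamine and lysine residues. Their genes lie side by side in the epidermal differentiation complex, and in skin several of them are known to be induced by wounding, inflammation and other stress. The family was taken as 10 mouse genes: Sprr1a, Sprr1b, Sprr2b, Sprr2d, Sprr2e, Sprr2f, Sprr2h, Sprr2i, Sprr2k and Sprr3. A probe set counted where the platform annotation gave 1 of these symbols and no other, which left 8 probe sets, 1 each for 8 genes, of 45037 probe sets tested (18193 genes with a symbol of their own). Sprr2b and Sprr2e had no such probe set and have no expression value here.

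RNA came from primary keratinocytes grown from newborn mice of mixed C57BL6/FVB background, in medium with 100 nM sodium selenite. The groups were Gpx4 KO, in which a cre recombinase under the keratin 14 promoter (K14-cre) removed Gpx4 in keratinocytes, and control, from mice of the same litters. Each array held the pooled cells of 1 genotype from 1 of litters A, B and C, so there were 3 knockout and 3 control arrays, paired by litter. The sources used here do not give the alleles of the controls. Gpx4, the selenoenzyme that reduces lipid hydroperoxides in membranes, fell in the knockout pools (229 ± 26.4 in knockouts and 528 ± 27.8 in controls, SD, n = 3 each; log2 change -1.15 ± 0.091 SE, limma adjusted p = 0.0206; with litter A or B left out the adjusted p was 0.162 and 0.278). Its dimmer probe set was also lower (136 ± 42.2 in knockouts and 383 ± 90.1 in controls, SD). That log2 change, -1.40 ± 0.21 SE, did not pass (limma adjusted p = 0.063).

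Values are intensities after quantile normalization between arrays unless the deposited scale is named, and each log2 change is knockout minus control on log2(intensity + 16), an added 16 that shrinks the change of dim probe sets. Half-widths after a log2 change are limma's standard errors (SE), litter being a block. Adjusted p-values are Benjamini-Hochberg values over all probe sets, with a threshold of 0.05. Over all probe sets 71 passed higher and 118 lower in the knockout. As deposited 3 passed higher and 32 lower, and with array medians aligned 198 higher and 512 lower. Intensities of different probe sets are not on a shared scale and no level is compared between genes.

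The pools carried further differences. The 3 Y-linked probe sets examined, Eif2s3y, Kdm5d and Uty, read 0.367 to 4.62 in the knockout arrays and 43.3 to 185 in the control arrays and fell (log2 changes -3.33, -2.01 and -1.95), while Xist, the X-inactivation RNA, rose (1234 ± 23.4 in knockouts and 476 ± 77.1 in controls, SD, n = 3 each). Sex and genotype therefore cannot be told apart in any result below. The basal keratinocyte markers summed to 18260.0 to 18606 in knockouts and 17684 to 20237 in controls, and none of the 6 passed the test. The 6 suprabasal markers are of the layers where Sprr genes are known to be expressed. They summed to 4372 to 5024 in knockouts and 5766 to 6828 in controls, without overlap, and 2 of the 6 had a positive log2 change. All marker sums here mostly follow their brightest probe sets. In the suprabasal sum Krtdap alone read 2977 to 3839 in knockouts and 3405 to 4682 in controls. Ivl, Lor and Krtdap of this set are also in the cornified envelope list below. Among the 6 suprabasal markers Krt10, an early differentiation keratin, fell (250.2 ± 34.4 in knockouts and 696 ± 92.2 in controls, SD, n = 3 each; log2 change -1.42 ± 0.084, limma adjusted p = 0.00922), and did not pass as deposited (0.0622) or with litter A or B left out (0.103 and 0.186). Its partner keratin Krt1 (-1.21 ± 0.22, adjusted p = 0.0836) and the desmosomal cadherin Dsg1a (-0.74 ± 0.15, adjusted p = 0.101) did not pass. All 6 melanocyte markers had a positive log2 change, of which Tyrp1 and Mlana passed (neither of them as deposited, nor with litter A or B left out), and they summed to 5976 to 6571 in knockouts and 4216 to 4405 in controls. The 6 fibroblast markers summed to 321 to 498 in knockouts and 144 to 444 in controls, and none passed. The 4 endothelial markers summed to 24.4 to 37.3 in knockouts and 23.1 to 34.8 in controls. The 6 immune markers summed to 72.3 to 107 in knockouts and 53.3 to 69.1 in controls. The 4 simple or oral epithelium markers summed to 73.9 to 91.2 in knockouts and 50.7 to 57.5 in controls, all 4 with a positive log2 change and none passing. Of these, Krt18 had means of 37.3 in knockouts and 17.5 in controls. Krt4 was negative in litters A and C, and Krt8 and Krt13 in litter B. Several endothelial, immune and epithelium markers (such as Pecam1, Itgam, Cd207 and Krt13) lay under the array median of 17.5, which limits their sums. The part of these cell types and of sex in the Sprr values was not tested.

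The stretches of promoter around the AP-1 motif are shown first, because this element recurs across the family. Promoters were taken from RefSeq (GRCm38.p6) as 250 bases before to 50 bases after the annotated start, and all 10 genes had 1. The motif of AP-1, the dimer of Fos and Jun proteins, was searched as TGANTCA with any middle base. It is its own reverse complement apart from that base, so both strands are covered. The middle base was A in the Sprr1b match and G or C in the others below. Capitals mark the motif, and each sequence is read 5′ to 3′ on the strand of the gene.
Sprr1a, 146 bases before the start, chr3:92486009-92486039, minus strand: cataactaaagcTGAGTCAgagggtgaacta
Sprr1a, 116 bases before the start, chr3:92485979-92486009, minus strand: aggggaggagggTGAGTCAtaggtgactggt
Sprr1b, 111 bases before the start, chr3:92438872-92438902, minus strand: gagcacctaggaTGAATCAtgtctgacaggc
Sprr2b, 195 bases before the start, chr3:92316498-92316528, plus strand: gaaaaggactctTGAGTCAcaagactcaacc
Sprr2d, 193 bases before the start, chr3:92338935-92338965, plus strand: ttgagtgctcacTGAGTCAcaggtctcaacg
Sprr2e, 193 bases before the start, chr3:92351938-92351968, plus strand: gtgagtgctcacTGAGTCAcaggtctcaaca
Sprr2f, 197 bases before the start, chr3:92364978-92365008, plus strand: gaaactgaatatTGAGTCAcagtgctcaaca
Sprr2h, 198 bases before the start, chr3:92385475-92385505, plus strand: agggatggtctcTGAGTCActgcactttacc
Sprr2i, 193 bases before the start, chr3:92407786-92407816, plus strand: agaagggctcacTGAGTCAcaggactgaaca
Sprr2k, 196 bases before the start, chr3:92432374-92432404, plus strand: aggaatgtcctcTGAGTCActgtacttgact
Sprr2k, 182 bases before the start, chr3:92432388-92432418, plus strand: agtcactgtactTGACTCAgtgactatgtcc

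At least 1 match lay in the promoters of 9 of the 10 genes, against 7.81% of all 32851 promoters in the table. In the 7 Sprr2 genes a match began 193 to 198 bases before the start, at nearly the same place in each. Sprr2k had another one 182 bases before the start. Sprr1a had a pair of matches, at 146 and 116 bases, and Sprr1b had 1, at 111 bases. Sprr3, also called esophagin and made in oral and oesophageal epithelium, had none in this window. The ETS motif CNGGAAG was in 1 of 10 Sprr promoters, that of Sprr2b, against 31.9% of all promoters, and the KLF motif GGGNGNG was in 4 of 10, against 67.9%. Both were searched on both strands, and 1 pair of matches overlapped, the KLF and the nearer AP-1 match of Sprr1a. Promoters of the Sprr2 genes were alike over the whole window (61.9% to 89.1% identical aligned positions over 21 pairs, highest for Sprr2d and Sprr2e), and those of Sprr1a and Sprr1b were 56.3% identical. These are matches of letters and not measured binding.

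**Figure D1:**
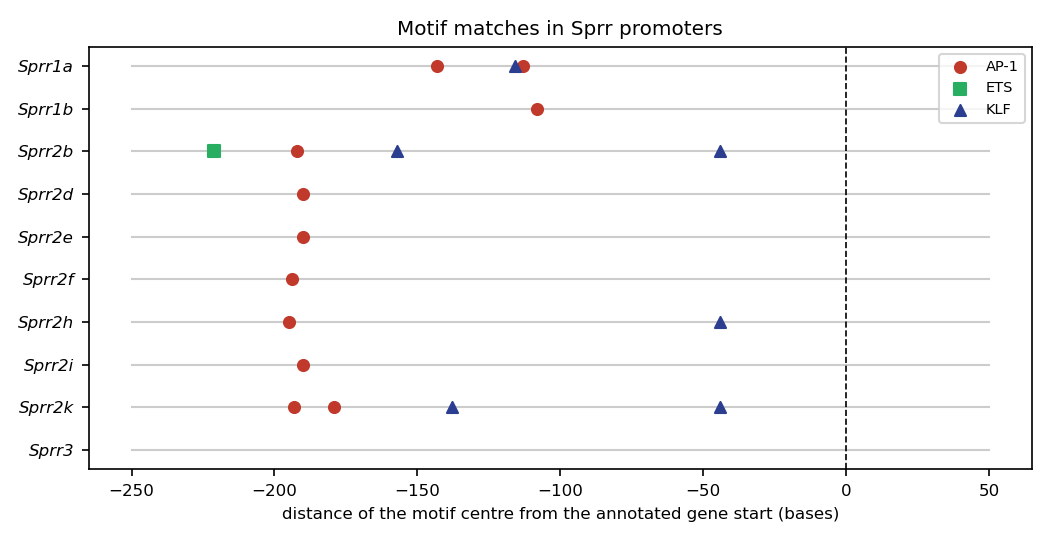
Matches of the AP-1, ETS and KLF motifs in the promoters of the 10 Sprr genes, by distance in bases from the annotated gene start (dashed line). Red points mark AP-1 matches, which lie 193 to 198 bases before the start in each of the 7 Sprr2 genes.

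The whole windows of Sprr1a, Sprr1b and Sprr2h are given because these genes had the 3 smallest p-values of the family, in opposite directions, with AP-1 matches in capitals.
Sprr1a, chr3:92485832-92486131, minus strand: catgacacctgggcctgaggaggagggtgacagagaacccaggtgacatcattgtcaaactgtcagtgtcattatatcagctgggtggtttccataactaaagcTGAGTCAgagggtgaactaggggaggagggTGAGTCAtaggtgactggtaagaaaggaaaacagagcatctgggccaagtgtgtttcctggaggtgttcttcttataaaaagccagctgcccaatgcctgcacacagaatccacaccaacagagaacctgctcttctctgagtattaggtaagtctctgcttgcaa
Sprr1b, chr3:92438730-92439029, minus strand: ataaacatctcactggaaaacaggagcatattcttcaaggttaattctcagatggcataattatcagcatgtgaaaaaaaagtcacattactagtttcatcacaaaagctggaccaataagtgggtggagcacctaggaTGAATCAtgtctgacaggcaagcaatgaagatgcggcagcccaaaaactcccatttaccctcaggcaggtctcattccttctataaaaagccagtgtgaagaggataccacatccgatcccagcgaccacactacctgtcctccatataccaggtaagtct
Sprr2h, chr3:92385435-92385734, plus strand: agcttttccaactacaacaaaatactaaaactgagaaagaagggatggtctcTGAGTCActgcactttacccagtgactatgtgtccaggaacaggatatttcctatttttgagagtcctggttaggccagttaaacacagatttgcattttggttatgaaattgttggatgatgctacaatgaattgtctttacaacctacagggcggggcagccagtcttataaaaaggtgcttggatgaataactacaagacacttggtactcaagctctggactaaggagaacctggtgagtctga

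None of the 8 Sprr probe sets passed the test between knockout and control pools by limma, and 3 had an unadjusted p under 0.05. Over all probe sets 0.42% passed and 14.6% had an unadjusted p under 0.05. The knockout and control arrays overlapped for each of the 8, while over all probe sets the groups did not overlap for 18.2%. In pooled cells, fewer cells of a type and less RNA per cell cannot be told apart. The median log2 change of the 8 was 0.29, beside 0.00185 over all probe sets, and 6 of the 8 estimates were positive. As deposited the Sprr median was 0.10, beside -0.066 over all probe sets. Without the control array of litter C (no block, an alternative added after the data were seen) the Sprr median was 0.51. Litter A alone gave 0.24, litter B 0.30 and litter C 0.026.

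Sprr1a encodes a stress-induced member that is also known from regenerating nerve. Its intensity was 1217, 1828 and 2616 in knockouts of litters A, B and C, against 1755, 2265 and 5911 in the controls. The knockout was the lower array in each litter, and the control of litter C stood far above the others. The log2 change was -0.67 ± 0.16 (95% interval -1.05 to -0.28, limma adjusted p = 0.145), and the litters gave -0.52, -0.31 and -1.17. Without litter C it was -0.41 ± 0.082 and passed (adjusted p = 0.0366). It also passed without the 40% dimmest probe sets (0.0485), with fewer to adjust for and an SE of 0.146, against 0.16 in the main fit. With the control of litter C alone left out and no block (added after the data were seen) it was -0.15 ± 0.29 and did not pass (0.851).

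Sprr1b, its closest paralog and a known marker of squamous differentiation, ran the other way. It read 1509.6, 2159 and 3191 in knockouts of litters A, B and C, against 1122, 1127 and 2709 in controls. The knockout was the higher array in each litter, but the knockouts of litters A and B lay under the control of litter C. The log2 change was 0.53 ± 0.13 (95% interval 0.20 to 0.85, limma adjusted p = 0.157), with 0.42, 0.93 and 0.24 in the 3 litters. In litter C the sign turned under other scalings (-0.26 as deposited and -0.092 with array medians aligned). Without litter C it was 0.68 ± 0.12 and passed (adjusted p = 0.0267), and with the control of litter C alone left out and no block it was 0.96 ± 0.27 and did not pass (0.108).

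The log2 change of Sprr1b exceeded that of Sprr1a by 0.95, 1.24 and 1.41 in litters A, B and C (mean 1.20 ± 0.23 SD, n = 3 litters). On the deposited scale the gap was 0.95, 1.21 and 1.32. A factor shared by a whole array cancels in such a gap between bright probe sets, so this likeness is no separate support. An exact sign-flip permutation test (two-sided) gave p = 0.25, the smallest that 3 litters allow, and the pair was picked out after its values were seen. Both genes lie on chromosome 3 (GRCm38.p6), Sprr1b at chr3:92436808-92438817 and Sprr1a at chr3:92483954-92485881, with Sprr3 between them.

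**Figure D2:**
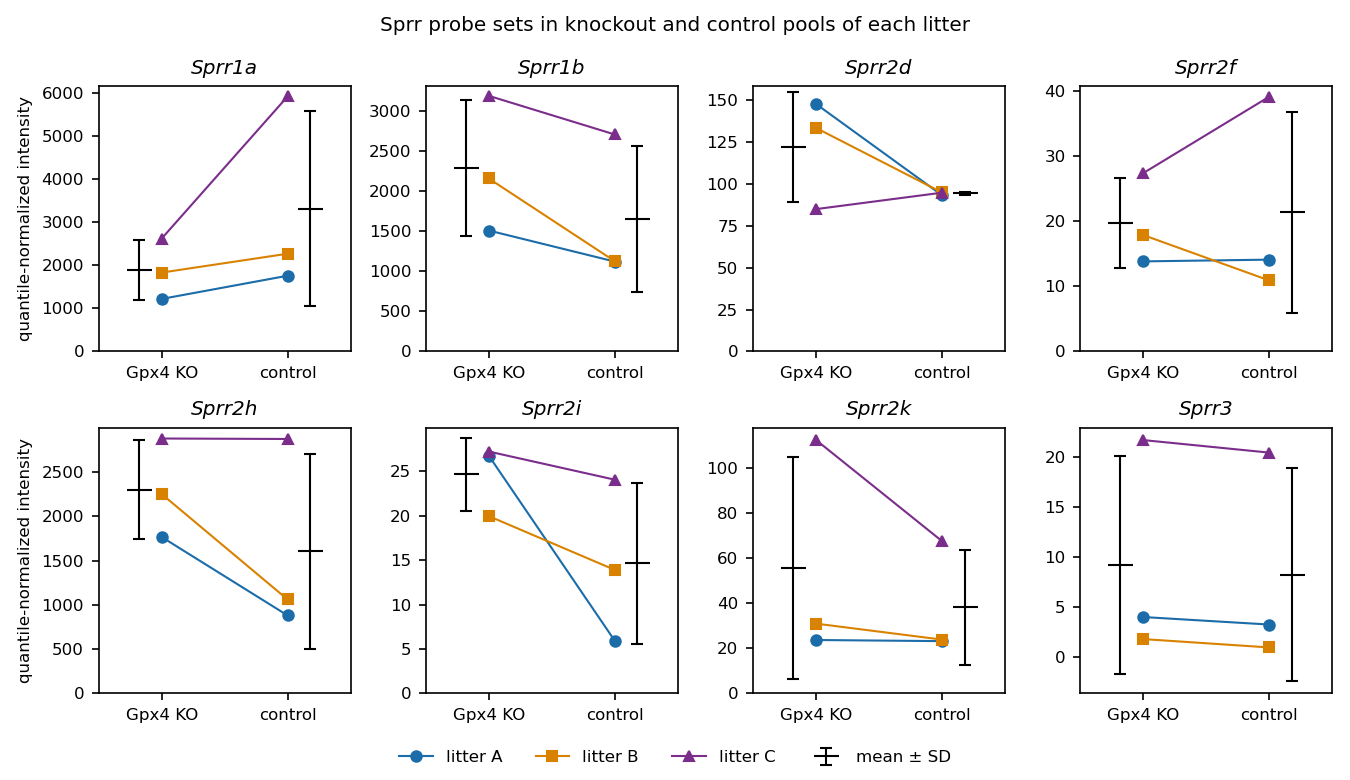
Quantile-normalized intensity of each Sprr probe set in the knockout (left) and control (right) pool of each litter, joined by litter, with the mean ± SD of 3 arrays in black. On this scale Sprr1a slopes up to the control in each litter and Sprr1b slopes down (in litter C not as deposited), while litter C (triangles) is the highest array of its genotype for 7 of the 8 genes in knockouts and in controls.

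Sprr2h belongs to the Sprr2 group, a set of short paralogs expressed in differentiating epithelia. It read 1766, 2251 and 2878 in knockouts of litters A, B and C, against 881, 1061 and 2873 in controls. The knockout was well above the control in litters A and B and level with it in litter C. The log2 change was 0.69 ± 0.20 (95% interval 0.20 to 1.18, limma adjusted p = 0.205), with 0.99, 1.07 and 0.0026 in the 3 litters, the last being -0.47 as deposited and -0.30 with array medians aligned. Without litter C it was 1.04 ± 0.073 and passed (adjusted p = 0.00118), and with the control of litter C alone left out and no block it was 1.23 ± 0.20 and passed (0.0195). The suffix of this probe set (s_at) marks probes shared by more than 1 transcript, so it may also read other Sprr2 RNAs.

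Sprr2d, another Sprr2 paralog, read 148, 134 and 85 in knockouts of litters A, B and C, against 93.3, 94.96 and 94.8 in controls. The controls were nearly identical, and the knockout was above them in litters A and B and below them in litter C. The log2 change was 0.29 ± 0.16 (95% interval -0.10 to 0.69, limma adjusted p = 0.471), and 0.50 ± 0.12 without litter C (adjusted p = 0.0632).

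Sprr2k read 23.7, 30.9 and 112.3 in knockouts of litters A, B and C, against 23.2, 23.9 and 67.5 in controls. Litter C was the high one in both genotypes, and the log2 change was 0.29 ± 0.17 (95% interval -0.13 to 0.71, limma adjusted p = 0.501). It was 0.12 without litter C, and 0.63 with the control of litter C alone left out and no block. Sprr2i read 26.75, 19.95 and 27.2 in knockouts, against 5.93, 13.9 and 24.1 in controls of litters A, B and C. Its knockout was higher in each litter, with log2 changes of 0.96, 0.27 and 0.11 and an estimate of 0.45 ± 0.21 (95% interval -0.063 to 0.96, adjusted p = 0.398). Being dim, it moved with the number added before the logarithm, to 0.89 with 1 and 0.18 with 64, and it was 0.20 without litter A.

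Sprr2f and Sprr3 were dim. Sprr2f read 13.8, 17.9 and 27.4 in knockouts of litters A, B and C, against 14.1, 10.9 and 39.1 in controls, around the array median of 17.5, with a log2 change of -0.0087 ± 0.19 (95% interval -0.46 to 0.44). Its sign turned with a pseudocount of 1 and without litter C. Sprr3 read 4.03, 1.83 and 21.7 in knockouts, against 3.28, 1 and 20.4 in controls. In litters A and B this was within the 0.367 to 4.62 of the Y-linked probe sets in knockouts, and in litter C it was above that in both genotypes. Its log2 change was 0.058 ± 0.12 (95% interval -0.22 to 0.34), and as deposited it was -0.018.

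**Figure D3:**
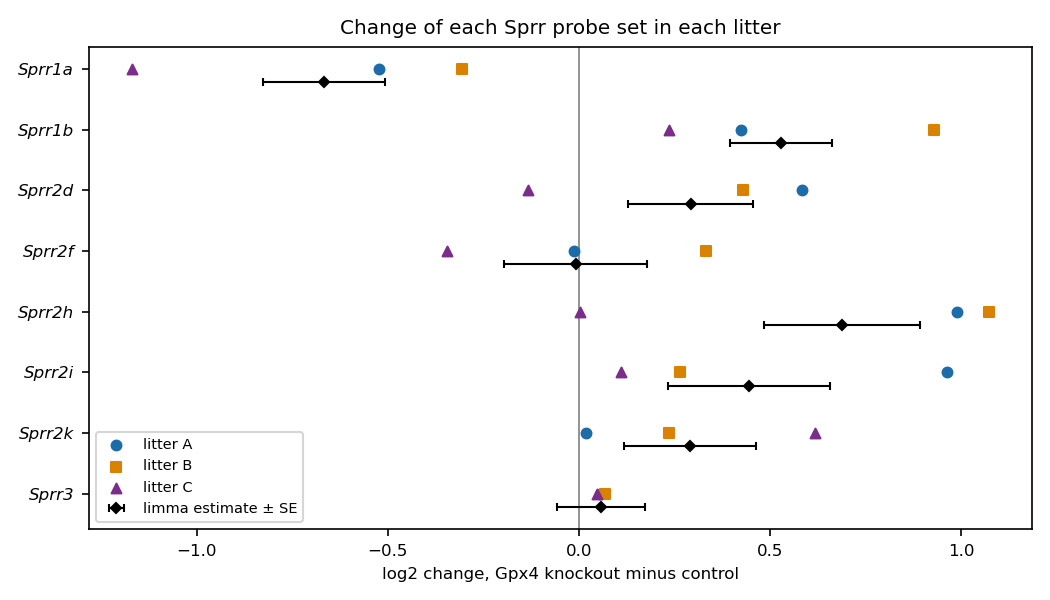
Log2 change (knockout minus control) of each Sprr probe set in litters A, B and C (coloured points) with the limma estimate ± SE (black). Sprr1a is below 0 and Sprr1b above 0 in each litter, though in litter C Sprr1b is -0.26 as deposited, and litter C lies below litters A and B for 7 of the 8 genes.

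The sign of the change was positive in the 3 litters for 5 of the 8 (Sprr1b, Sprr2h, Sprr2i, Sprr2k and Sprr3), against 18.1% of all probe sets, and negative in the 3 litters for Sprr1a, against 18.3%. Some of these positive signs rest on very small log2 changes. They were 0.0026 for Sprr2h in litter C, 0.018 for Sprr2k in litter A and 0.049 to 0.069 for the dim Sprr3. The positive counts depend on the scale of the litter C arrays. As deposited, 0 of the 8 were positive in the 3 litters and 1 was negative, against 7.66% and 23.8% of all probe sets, and the median change of all probe sets in litter C was -0.26. With array medians aligned, 3 were positive and 1 negative, against 13.3% and 19.4% of all probe sets. Sprr1a was the negative one under each of the 3 scalings.

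Litter took a larger share of the sum of squares than genotype for 7 of the 8 probe sets, the exception being Sprr2i. Litter has more degrees of freedom than genotype, which favours litter in such shares. For Sprr2d they were nearly level, at 32.8% for litter and 31.9% for genotype. Of the sum of squares of log2(intensity + 16) over the 6 arrays, litter took 70.6% and genotype 22.6% for Sprr1a, 73.2% and 20.5% for Sprr1b, and 59% and 27.3% for Sprr2h. For Sprr2k and Sprr3 litter took 91.5% and 99.6%. The medians over the 10352 probe sets with a mean of at least 100 were 33.2% for litter and 32.1% for genotype. The litter C array was the highest knockout for 7 of the 8 and the highest control for 7 of the 8, Sprr2d being the exception in knockouts and in controls. Over the 10352 probe sets this held for 37.2% in knockouts and 42.1% in controls. Sprr2f, Sprr2i, Sprr2k and Sprr3 had means of 20.5, 19.6, 46.9 and 8.71, so they lie outside that set. Shares over probe sets as dim as these were not computed.

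Among knockouts litter C exceeded the mean log2 value of litters A and B by 1.75-fold for Sprr1a, 1.76-fold for Sprr1b and 1.44-fold for Sprr2h. Among controls the same gap was 2.95-fold, 2.39-fold and 2.94-fold. For these 3 genes the gap was wider in controls than in knockouts, whereas Sprr2k had 2.97-fold in knockouts and 2.11-fold in controls, and Sprr3 1.99-fold and 2.01-fold. With 1 array of each genotype in litter C it has no replicate, and its cause was not tested.

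**Figure D4:**
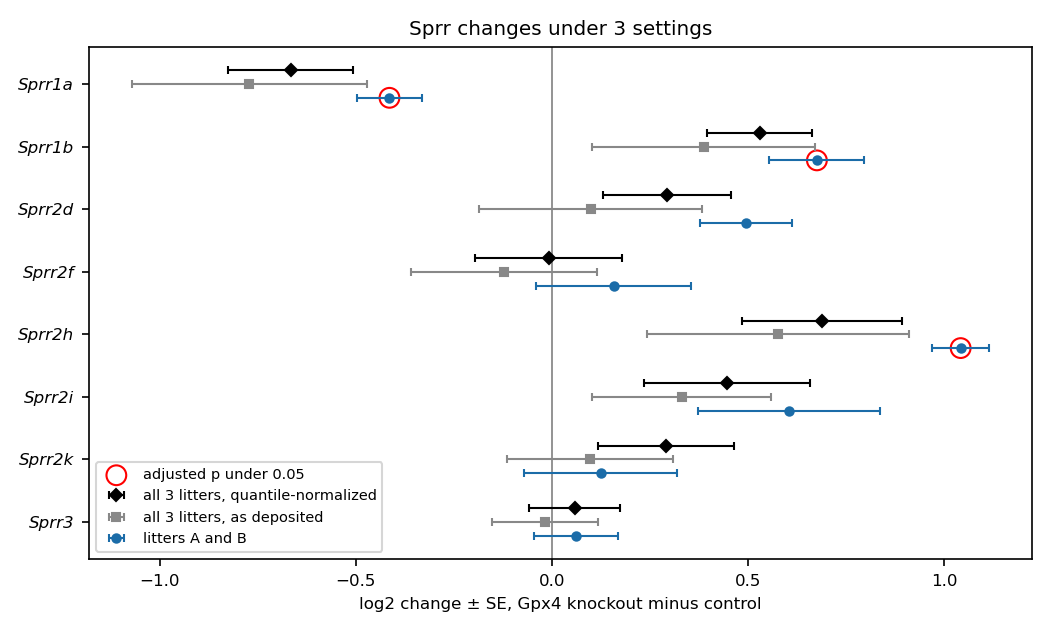
Log2 change ± SE of each Sprr probe set with all 3 litters after quantile normalization (black), with all 3 litters as deposited (grey) and with litters A and B alone (blue). Red rings mark an adjusted p under 0.05, which was reached for Sprr1a, Sprr1b and Sprr2h with litters A and B alone.

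Without litter C, 3 of the 8 Sprr probe sets passed, Sprr1b and Sprr2h higher and Sprr1a lower. In that fit 2.9% of all probe sets passed higher and 3.02% lower, against 0.42% in both directions with all 3 litters. Without litter A or litter B, 0 of the 8 passed by limma (2 at an unadjusted p under 0.05 in each), in fits where 0.00666% and 0% of all probe sets passed (4130 and 3695 at an unadjusted p under 0.05). With the control array of litter C alone left out and no litter block, Sprr2h alone passed, beside 2.51% of all probe sets higher and 2.85% lower.

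Other probe sets of the family were read for context. The transcribed pseudogene Sprr2j-ps, singled out after its values were seen, read 26.75, 27.5 and 40.5 in knockouts of litters A, B and C, against 2.10, 4.03 and 20.7 in controls. Its knockout and control arrays did not overlap, and the log2 change was 0.99 ± 0.18 (limma adjusted p = 0.0893, and 0.0182 without litter C). The controls of litters A and B lay within the range of the Y-linked probe sets in knockouts, so the size depends on the number added before the logarithm (2.20 with 1 and 0.40 with 64). Near-identical Sprr2 RNAs may share its probes. A further 3 probe sets are annotated to several Sprr genes each and are not named, and their log2 changes were 0.19, -0.048 and -0.16, none of which passed. In these 3 litter A stood apart, with -0.86, -0.69 and -0.63, against 0.57, 0.33 and 0.18 in litter B and 0.86, 0.21 and -0.021 in litter C.

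The other precursors and enzymes of the cornified envelope were taken as a list of 44 genes, of which 35 had a probe set. By limma 2 fell and 0 rose, with 8 at an unadjusted p under 0.05, beside 0.42% and 14.6% of all probe sets, and the median log2 change was -0.091. Tgm5, an epidermal transglutaminase, fell (28.1 ± 13.1 in knockouts and 99.0 ± 39.3 in controls, SD, n = 3 each; log2 change -1.36 ± 0.14, adjusted p = 0.0341). Scel, the envelope precursor sciellin, fell as well (131 ± 13.1 in knockouts and 268 ± 6.10 in controls; -0.95 ± 0.11, adjusted p = 0.0371). Lce1f, a late cornified envelope protein (-0.94 ± 0.20, adjusted p = 0.115), and Cst6, the protease inhibitor cystatin M/E (-1.55 ± 0.44, adjusted p = 0.19), did not pass. Both passed with array medians aligned (0.0396 and 0.0264) and without litter C (0.0204 and 0.00689), where the Lce1f change was -0.62 and the Cst6 change -0.77. With the control of litter C alone left out and no block they were -0.61 and -0.68. On the deposited scale Tgm5 and Scel missed the threshold (adjusted p = 0.0574 and 0.172), as they did with litter A or B left out, and Tgm5 missed it with no litter block (0.13).

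This list, like the Sprr genes, was read differently in litter C. Its litter medians were 0.12 (A), -0.0097 (B) and -0.80 (C), and 26 of the 35 genes had their highest control value in litter C. This held for 42.1% of the 10352 probe sets with a mean of at least 100, a set that leaves out the dimmer genes of the list. Without litter C, 6 rose and 4 fell, beside 2.9% of all probe sets higher and 3.02% lower. In chromosome order the Sprr cluster lay between Lor and Ivl, with the late cornified envelope (Lce) genes beyond. The measured Sprr2 genes and Sprr1b had estimates at or above -0.0087, and the neighbours from Sprr1a on had estimates of either sign.

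**Figure D5:**
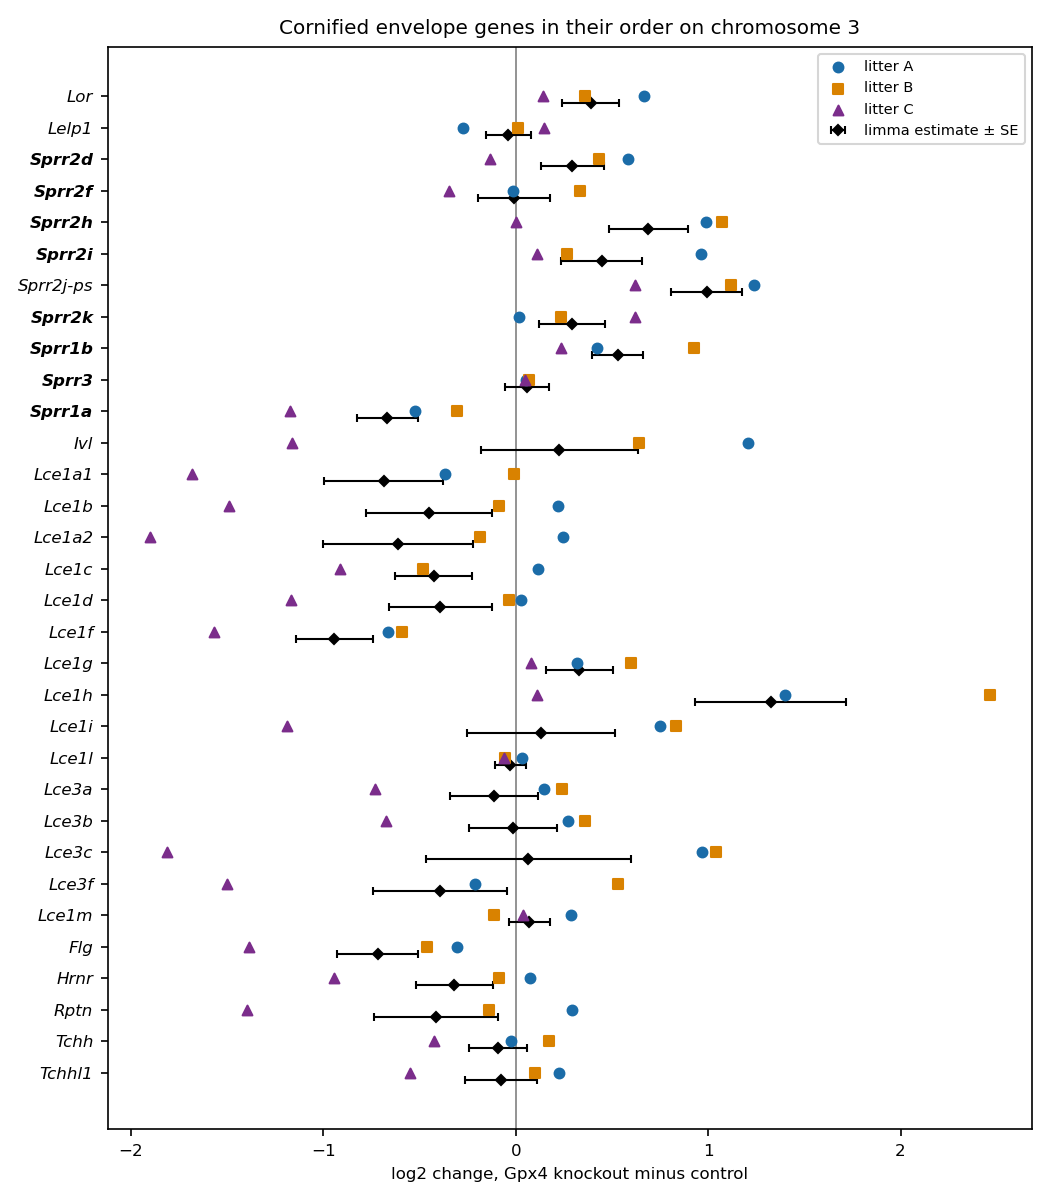
Log2 change (knockout minus control) in each litter and limma estimate ± SE for cornified envelope genes in their order along chromosome 3, Sprr members in bold. Litter C (triangles) lies below 0 for most genes from Sprr1a to Tchhl1, whereas the changes of Sprr2h to Sprr3 lie at or above 0 in the 3 litters on the quantile-normalized scale (not as deposited, where Sprr2h is -0.47 in litter C).

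Transcription factors known to act in the epidermis or on Sprr promoters formed a list of 30, of which 28 were measured. By limma 1 rose and 0 fell, with 11 at an unadjusted p under 0.05, beside 0.42% and 14.6% of all probe sets, and the median log2 change was -0.083. The one that rose was Fosl1, the AP-1 subunit Fra-1, with 559, 453 and 245 in knockouts of litters A, B and C, against 55.8, 41.3 and 73.4 in controls. Its knockout and control arrays did not overlap, and litter C had the smallest gap (log2 change 2.53 ± 0.29, adjusted p = 0.038). On the deposited scale it missed the threshold (adjusted p = 0.0719), and likewise with litter A or B left out (0.229 and 0.407). The other Fos, Jun and Batf genes on the list did not pass. Their log2 changes were 1.56 (Fos), 0.45 (Junb), 0.13 (Jun), -0.26 (Fosb), -0.060 (Fosl2), -0.084 (Jund) and -0.0023 (Batf). In litter C those of Fos, Junb and Jun were -0.064, -0.40 and -0.37. Whether Fosl1 acts on the Sprr genes was not tested. Maf, a transcription factor known from late differentiation of human keratinocytes (-1.37 ± 0.23), Trp63, the master regulator of stratified epithelia (-0.43 ± 0.076), and Grhl1, which acts on desmosomal cadherin genes (-0.39 ± 0.097), had adjusted p-values of 0.0759, 0.0816 and 0.153. With litter C left out, 6 rose and 6 fell, beside 2.9% of all probe sets higher and 3.02% lower.

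Genes with patterns most like the brightest Sprr1 and Sprr2 probe sets were found by Pearson's r of log2(intensity + 16) over the 6 arrays, among 6202 genes with a mean intensity of at least 100. The brightest was taken to choose 1 member of each group, which does not rank their levels. Arrays share litters and the number of genes searched is large, so these values describe the 6 arrays only. For Sprr1a they were Spop (0.995), Sdr16c6 (0.993), the keratinocyte differentiation gene Krtdap (0.993), Ptpra (0.992) and Cdca3 (0.991). For Sprr2h they were Myg1 (0.998), Rae1 (0.998), Uxs1 (0.998), Wdr75 (0.994) and Nampt (0.993). Sprr1a and Sprr2h themselves had r = 0.49, against r = 0.96 for Sprr1b and Sprr2h.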

How the data were processed

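Expression was measured on 1-colour arrays with biotin-labelled targets, per the labels' protocols. The deposited values are linear intensities, 1 for each probe set on each array. The sources used here do not say how the authors corrected, summarised and scaled them. The mean trimmed by 2% at each end differed up to 1.57-fold between arrays, so intensities were quantile-normalized, after leaving out 64 control probe sets of 45101. Tests used limma 3.58.1 under R 4.3.3 on log2(intensity + 16) with litter as a block and an intensity trend, two-sided. The labels name each array's litter, which pairs the arrays; residuals of same-litter arrays correlated with r = 0.17, 0.047 and 0.21 in A, B and C. Symbols came from the platform annotation (34945 probe sets with 1 gene, 932 with several, 9160 not listed), coordinates and promoters from RefSeq GRCm38.p6, and promoter alignments from Biopython 1.88. A gene with several probe sets was read from the brightest. With arrays left out, the rest were normalized anew. The steps were tested on simulated arrays. Members and lists were chosen with earlier results of these data known. Named were all members, Gpx4, sex-linked genes, some cell type markers and the 4 list genes with the smallest p in each list. Also named were the other Fos, Jun and Batf genes on the regulator list, and the 5 most alike genes for the brightest Sprr1 and Sprr2 members. Precision is limited by having 6 arrays.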

Additional observations from a re-analysis of the deposited data

How the results depend on the processing

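Of 87 values of single Sprr genes under the alternatives, 78 kept their sign and their side of the threshold. This count overstates stability. Leaving out the block, the trend or the dimmest probe sets leaves each log2 change as it was, so no sign could turn there. As no Sprr probe set passed in the main fit, keeping its side means not passing. The number of probe sets past the threshold was 189, against 35 as deposited, 710 with array medians aligned, 601 and 59 with pseudocounts of 1 and 64, 1130 without the 40% dimmest probe sets, 6 without an intensity trend and 0 to 2666 with a litter left out. It was 135 with no litter block, and with the control of litter C alone left out and no block (added after the data were seen) it was 2413. No Sprr probe set passed with all arrays and no block, but the pairing mattered to their errors. Without it, Sprr probe sets with an unadjusted limma p under 0.05 went from 3 to 0. The SE of Sprr1a rose from 0.16 to 0.44 and that of Sprr1b from 0.13 to 0.37. The number of Sprr probe sets that passed was 0, against 1 (Sprr1a, -0.67) without the dimmest probe sets, 0 to 3 with a litter left out and 1 (Sprr2h, 1.23) without that control. The Sprr median of 0.29 was 0.10 as deposited (beside -0.066 over all probe sets), 0.51 without that control and 0.17 to 0.33 with a litter left out. With a litter left out Sprr1a lay between -0.85 and -0.41, Sprr1b between 0.33 and 0.68, Sprr2h between 0.50 and 1.04 and Sprr2f between -0.17 and 0.16. Without the control of litter C alone Sprr1a was -0.15, Sprr1b 0.96 and Sprr2k 0.63. Sprr2f was 0.047 with a pseudocount of 1 and 0.30 without that control, and Sprr3 was -0.018 as deposited.

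The cornified envelope count of 2 was 0 as deposited, with a pseudocount of 64 and without a trend, 4 with array medians aligned, 1 without the block or with a gene's probe sets averaged, 5 without that control and 0 to 10 with a litter left out. The regulator count of 1 was 0 as deposited, with a pseudocount of 64 and without a trend, 2 with array medians aligned or a pseudocount of 1, 3 without the dimmest probe sets, 11 without that control and 0 to 12 with a litter left out. Gpx4 did not pass as deposited (-1.34) or without a trend (-1.15), and lay between -1.21 and -1.10 with a litter left out. Apart from fewer arrays or probe sets tested, the cause of these shifts was not tested. Signal limits Sprr2f, Sprr2i and Sprr3, whose intensities lay near or under the array median of 17.5.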
